A study of Rattus norvegicus with 12 samples.

Results

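The 37 rows examined here carry the names of nuclear-encoded subunits of respiratory complex I in a deposited table of 30560 genes. The rule that picked them used names: every row called Ndufa, Ndufb, Ndufc, Ndufs or Ndufv followed by a number, and Ndufab1. Earlier results of these data were known when these rows were chosen. These rows hold 35 names, because Ndufs5 and Ndufb2 each stand on 2 rows with different gene identifiers. Of 38 subunit symbols looked for, Ndufa10, Ndufb1 and Ndufb9 had no row under that name. Ndufa10 is also listed as a synonym of Ndufa10l1, which had rows but lies outside the rule. Total RNA was sequenced from inner red gastrocnemius, which lies in the calf, of male wild-type Wistar Kyoto rats aged 9 weeks. One group of 6 libraries was made from snap-frozen whole muscle, and the other group of 6 from mitochondria of the same 6 animals. The mitochondria had been pulled out of fresh muscle with an antibody-based kit and exposed to RNase A and proteinase K for digestion of RNA and protein. All libraries were depleted of ribosomal RNA, starting from 50 ng of muscle RNA or 10 ng of mitochondrial RNA. The study asked which RNAs are located in muscle mitochondria, so that the comparison of the groups shows, for each subunit mRNA, how much of it was counted in each preparation.

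Complex I, or NADH:ubiquinone oxidoreductase, is the entry point for electrons from NADH into the respiratory chain. Its matrix arm holds the N module, which oxidises NADH, and the Q module, which passes the electrons to ubiquinone, and its membrane arm pumps protons. The hydrophobic core of the membrane arm is encoded by the mitochondrial genome (the Mt-nd genes), while the core of the matrix arm and all accessory subunits are encoded in the nucleus, translated on cytosolic ribosomes and imported. Red muscle is known for its many mitochondria.

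Library totals were 24309444 to 32055355 counts in whole muscle and 720111 to 1785865 in mitochondria, which makes the mitochondria values the less precise ones. Genes of the mitochondrial genome took 26.4% to 35.9% of the counts in whole muscle and 12.9% to 51.5% in mitochondria. All 7 skeletal muscle markers with a row, of 8 listed, were present in whole muscle, with a sum of 144945 to 208007 CPM (counts scaled to a fixed library total), against 1275 to 3333 in mitochondria. Markers of other cell types were summed likewise: 4 endothelial markers had 259 to 452 CPM in muscle and 152 to 271 in mitochondria, 4 macrophage markers 23.2 to 44.3 and 139 to 247, 4 adipocyte markers 0.130 to 3.91 and 64.4 to 131, 4 Schwann cell markers 15.4 to 104 and 75.0 to 142, and 2 red blood cell markers with a row, of 4 listed, 26.4 to 95.8 and 25.8 to 66.4. None of these markers was at 0 over a whole group, and their part in the results below was not tested. In the bulk muscle libraries, fewer cells of a type and less RNA per cell cannot be told apart. The mitochondria libraries come from an organelle preparation, so marker sums there are no measure of cell numbers. By CPM, 79.5% of all genes tested had every mitochondria library above every muscle library.

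Most subunit mRNAs of complex I were far lower in the mitochondria libraries than in the muscle they came from. Of the 37 rows, 34 fell and 3 rose (edgeR, quasi-likelihood test after TMM scaling, Benjamini-Hochberg adjusted p under 0.05). Their median log2 fold change, mitochondria against muscle, was -4.78, and among the 34 rows with at least 1000 counts in whole muscle it was -5.02. Over all 24679 genes tested, 30.3% were called lower and 63.0% higher, and the median was 2.51. The TMM factors shift all folds down. With total counts as the only scaling, 33 members fell and 3 rose (median -2.71), where 9.03% of all genes fell and 84.3% rose (median 4.61). When mitochondrial genome counts set the scale, 30 fell and 3 rose (median -2.46), where 4.34% of nuclear genes fell and 80.9% rose (median 4.95). By CPM, 32 rows had every muscle library above every mitochondria library, which held for 6.77% of all genes tested, and 3 rows had every mitochondria library above every muscle library, which held for 79.5%. In all 6 animals, 33 rows were lower in mitochondria, a count for which no share over all genes was taken. The other settings gave like counts beside these shares of all genes. RLE scaling and DESeq2 each called 34 members lower and 3 higher, beside 26.6% and 66.5% of genes with RLE and 26.4% and 66.4% with DESeq2. Nuclear counts called 33 and 3, beside 9.30% and 85.6%. Without a filter the counts were 34 and 3, beside 25.7% and 66.6%, and with the animal as a block 34 and 3, beside 30.1% and 62.9%. A filter of 10 counts in 6 libraries left 35 members, of which 34 were lower and 1 higher, beside 37.7% and 53.1%. The median was then -4.70 for members and 0.598 for all genes tested. Thinning to equal nuclear counts left 33 members, all lower, beside 27.9% lower and 58.4% higher, with medians of -3.98 and 1.13. The median over all genes thus depends on which genes with few counts are kept.

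**Figure D1:**
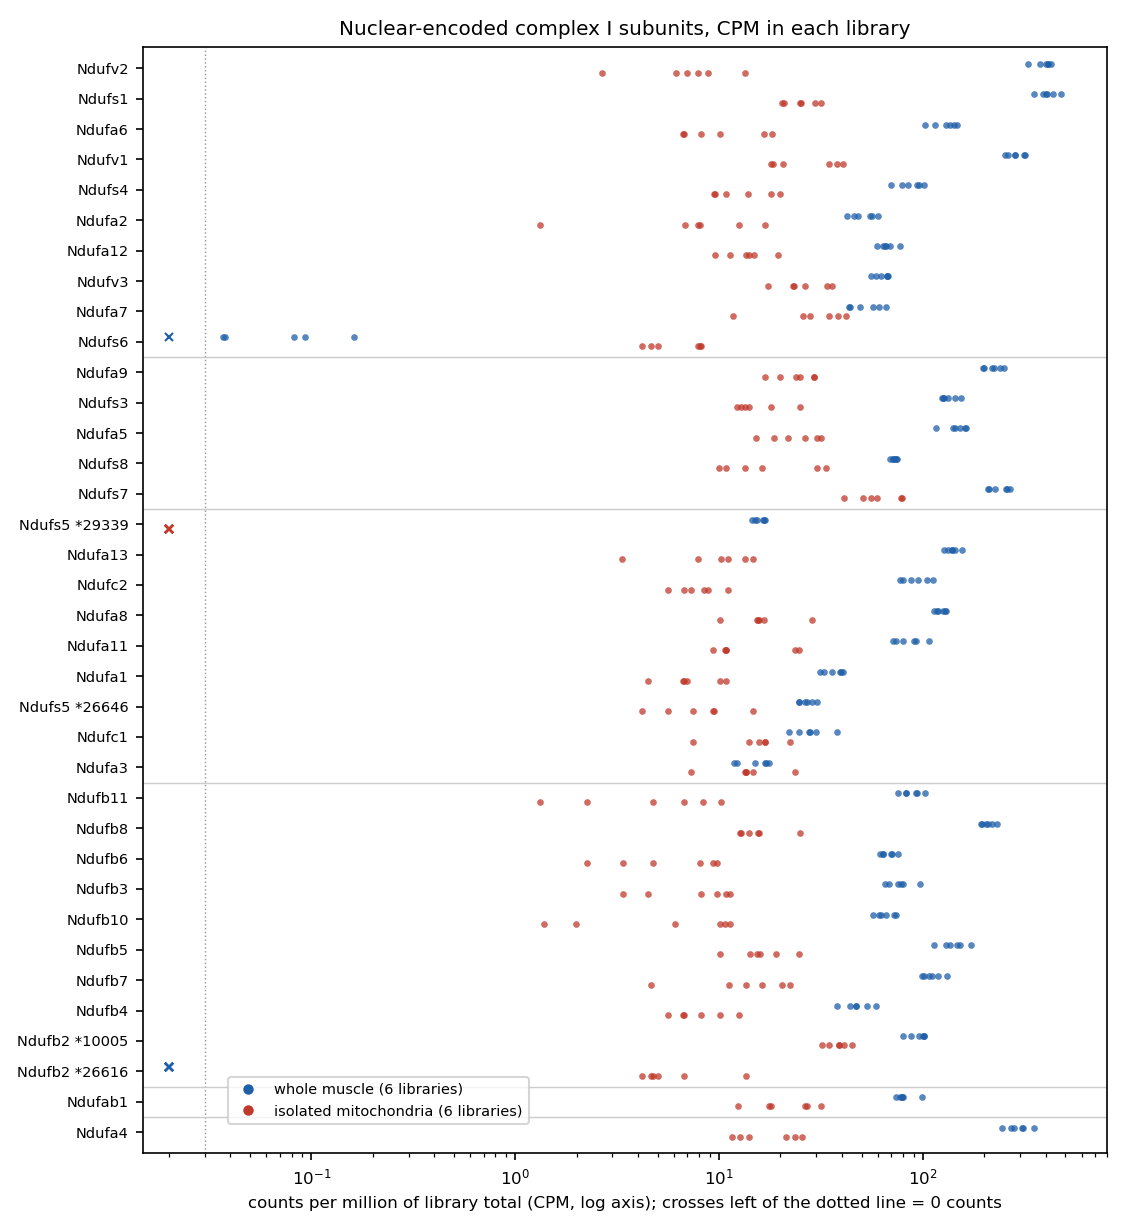
CPM (log axis) of 36 member rows in the 6 whole-muscle libraries (blue) and the 6 mitochondria libraries (red), grouped by N module, Q module, proximal and distal membrane arm, Ndufab1 and Ndufa4; a star marks the last digits of the gene identifier for names on 2 rows, and crosses stand for 0 counts. The muscle points lie to the right of the mitochondria points in 32 rows, the points overlap for Ndufa3 and Ndufc1, and Ndufs6 and 1 Ndufb2 row lie the other way.

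Summed over all members, the mRNAs had 3857 CPM in the lowest muscle library, 4216 in the median and 4425 in the highest, and 413, 585 and 730 in mitochondria. All muscle libraries thus lay above all mitochondria libraries, and within single animals the sum was 5.69 to 10.2 times lower in mitochondria. As a share of nuclear counts the members took 0.530% to 0.685% in muscle (mean 0.620% ± 0.0563, SD, n = 6) and 0.0838% to 0.0908% in mitochondria (mean 0.0874% ± 0.00260, SD, n = 6). The members' share of nuclear counts was thus almost the same in all 6 mitochondria libraries, although the mitochondrial genome took anything from 12.9% to 51.5% of their counts. Its coefficient of variation was 2.98%, where counting error alone gives 3.78%. Scaled to total counts the variation was 21.7%, and scaled to mitochondrial genome counts 76.2%, with a 7.02-fold range. In whole muscle the corresponding values were 9.07% for nuclear counts, 4.49% for total counts and 13.0% for mitochondrial genome counts.

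The 7 Mt-nd mRNAs, the mitochondrially encoded partners, averaged 22185 CPM in muscle (SD 3968, n = 6) and 28915 CPM in mitochondria (SD 9402, n = 6). For each member count there were 4.19 to 6.93 Mt-nd counts in whole muscle and 19.4 to 90.9 in mitochondria. All 7 Mt-nd mRNAs fell under TMM (median -1.62), while with total counts 0 fell and 2 rose (median 0.36), so their direction depends on the scaling. Of all genes tested, 30.3% fell and 63.0% rose under TMM (median 2.51). With total counts, 9.03% of all genes fell and 84.3% rose (median 4.61). The lowest ratio to member counts in mitochondria belonged to replicate 3, the library with the smallest share of mitochondrial genome counts, and the highest to replicate 4, the library with the largest. Mt-nd counts are part of that share, so the ratio and the share are not independent.

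**Figure D2:**
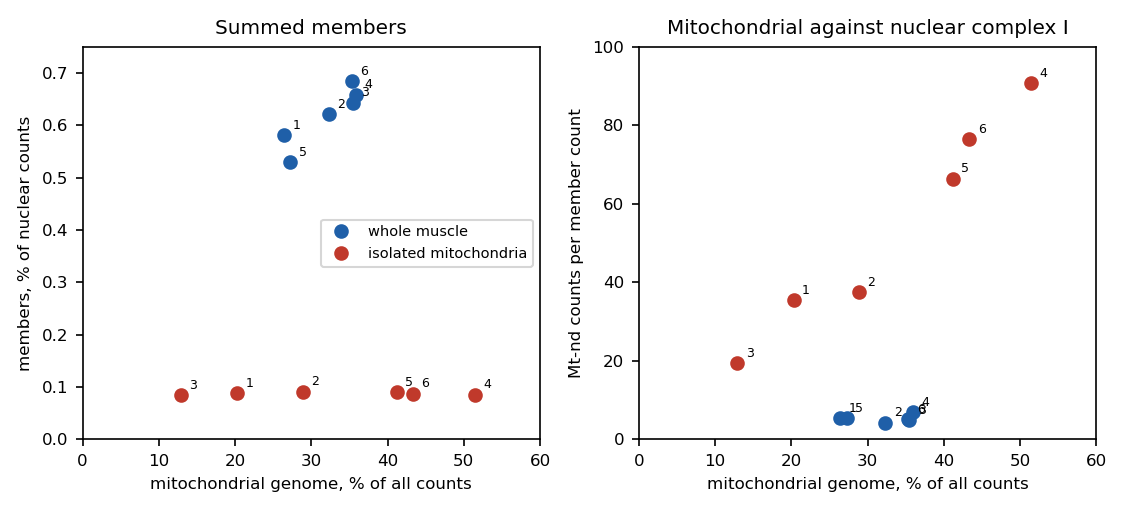
Left, counts on all members as a percentage of nuclear counts, and right, Mt-nd counts per member count, each against the percentage of all counts that fell on the mitochondrial genome; points are libraries, labelled with the replicate number, blue for whole muscle and red for mitochondria. The red points on the left stay between 0.0838% and 0.0908%, and those on the right climb from 19.4 to 90.9. Mt-nd counts are part of the percentage on the horizontal axis, so the axes on the right are not independent.

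The core subunits carry the flavin, the iron-sulfur clusters and the ubiquinone site. Of the 7 core rows, 6 fell and 1 rose, where 30.3% of all genes tested fell and 63.0% rose. The same shares apply to the counts by module below. Ndufs1, the large iron-sulfur subunit of the N module, had 352 CPM in the lowest muscle library, 404 in the median and 476 in the highest, and 20.3, 25.1 and 31.5 in mitochondria. The groups were far apart and the mitochondria libraries close together, and Ndufs1 fell by 6.11 ± 0.15 on the log2 scale (SE, edgeR adjusted p = 2.06e-25). Ndufv1, which binds NADH and the flavin, had 252, 283 and 317 CPM in muscle and 17.9, 27.7 and 40.5 in mitochondria. Here replicates 1 to 3 of the mitochondria were about as high as each other and above replicates 4 to 6, with no overlap with muscle, and Ndufv1 fell by 5.50 ± 0.14 (SE, edgeR adjusted p = 1.33e-24).

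Ndufv2, which carries an iron-sulfur cluster beside Ndufv1, had the largest fall of the rows counted in both groups. It had 328 CPM in the lowest muscle library, 406 in the median and 425 in the highest, and 2.66, 7.41 and 13.5 in mitochondria. Its 67019 counts in muscle were met by only 60 in mitochondria, none of whose libraries came near muscle, and it fell by 7.75 ± 0.18 (SE, edgeR adjusted p = 1.77e-25). By pooled CPM it was 51.4-fold lower, while Ndufs1 was 16.6-fold and Ndufv1 10.9-fold lower.

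In the Q module 5 of 6 rows fell. Ndufs7, which holds the last iron-sulfur cluster before ubiquinone, had 209 CPM in the lowest muscle library, 241 in the median and 268 in the highest, and 40.9, 57.6 and 79.2 in mitochondria. It took the most counts of any member in mitochondria (446). Every mitochondria library lay below every muscle library, and Ndufs7 fell by 4.12 ± 0.12 (SE, edgeR adjusted p = 8.38e-24). Ndufs3, a structural subunit of this module, fell by 5.24 ± 0.13 (SE, edgeR adjusted p = 6.77e-25), from 135 ± 12.1 CPM to 15.9 ± 4.89 (SD, n = 6 each). Ndufs8, which carries a pair of iron-sulfur clusters, was the steadiest member in muscle, with 69.0 to 74.3 CPM, a coefficient of variation of 2.75%. In mitochondria it ran from 9.98 to 33.3 CPM, highest in replicates 1 and 3, and it fell by 4.17 ± 0.14 (SE, edgeR adjusted p = 6.75e-22). The accessory subunits Ndufa9 and Ndufa5 changed by -5.34 and -4.74 on the log2 scale.

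Of the 10 rows of the N module, 9 fell, with a median of -4.77 over all 10. Among the accessory rows that fell, changes ran from -5.68 for Ndufa6 to -2.98 for Ndufa7, with Ndufs4, Ndufa2 and Ndufa12 between -4.78 and -4.39. Ndufv3, a small accessory subunit next to Ndufv1 and Ndufv2, had 55.9 to 67.1 CPM in muscle and 17.4 to 35.7 in mitochondria. Ndufa7 had 43.2 to 66.0 in muscle and 11.8 to 41.8 in mitochondria, so that for both genes every mitochondria library lay below every muscle library, for Ndufa7 narrowly. Ndufv3 fell by 3.36 ± 0.12 and Ndufa7 fell by 2.98 ± 0.15 (SE, edgeR adjusted p = 6.66e-22 and 3.69e-18). Neither passed relative to mitochondrial genome counts, at -0.93 (edgeR adjusted p = 0.0791) and -0.48 (edgeR adjusted p = 0.371).

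All 9 rows of the proximal membrane arm fell, with a median of -4.74. Ndufa13, also known as GRIM-19, had the largest fall among those counted in both groups and fell by 5.93 ± 0.16 (SE, edgeR adjusted p = 1.22e-24), and Ndufc2, Ndufa8, Ndufa11 and Ndufa1 changed by -5.60 to -4.37. The smallest fall of all members was that of Ndufa3, also in this arm. It had 11.8 CPM in the lowest muscle library, 15.9 in the median and 17.5 in the highest, and 7.28, 13.5 and 23.6 in mitochondria. The groups overlapped widely and only 3 of 6 animals had less in mitochondria. Its log2 change of -2.23 ± 0.16 under TMM (SE, edgeR adjusted p = 4.53e-14) was -0.14 with total counts (edgeR adjusted p = 0.543) and 0.16 on the scale of mitochondrial genome counts (edgeR adjusted p = 0.796). Ndufc1 had 22.1 to 37.8 CPM in muscle and 7.46 to 22.2 in mitochondria, where replicate 1 just reached the lowest muscle library. It fell by 2.99 ± 0.18 under TMM (SE, edgeR adjusted p = 3.49e-16) and by 0.91 with total counts (edgeR adjusted p = 4.51e-05), and did not pass relative to mitochondrial genome counts, at -0.64 (edgeR adjusted p = 0.252).

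In the distal membrane arm 9 of 10 rows fell, with a median of -5.23 over all 10. Ndufb11 had 75.7 CPM in the lowest muscle library, 88.0 in the median and 102 in the highest, and 1.33, 5.74 and 10.2 in mitochondria. Its mitochondria values rest on 2 to 15 counts a library and all lay far below muscle, and Ndufb11 fell by 6.17 ± 0.20 (SE, edgeR adjusted p = 9.88e-23). Ndufb8, Ndufb6, Ndufb3, Ndufb10, Ndufb5, Ndufb7 and Ndufb4 changed by -5.84 to -4.63. Ndufab1, the mitochondrial acyl carrier protein, which also serves fatty acid synthesis and iron-sulfur cluster assembly, fell by 4.02 ± 0.13 (SE, edgeR adjusted p = 3.57e-22), from 81.3 ± 8.88 CPM to 22.2 ± 7.31 (SD, n = 6 each). Ndufa4 bears a complex I name but is now placed in complex IV. It had 243 to 349 CPM in muscle and 11.5 to 25.6 in mitochondria and fell by 6.15 ± 0.15 (SE, edgeR adjusted p = 2.71e-25), and without it 33 of 36 rows fell.

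**Figure D3:**
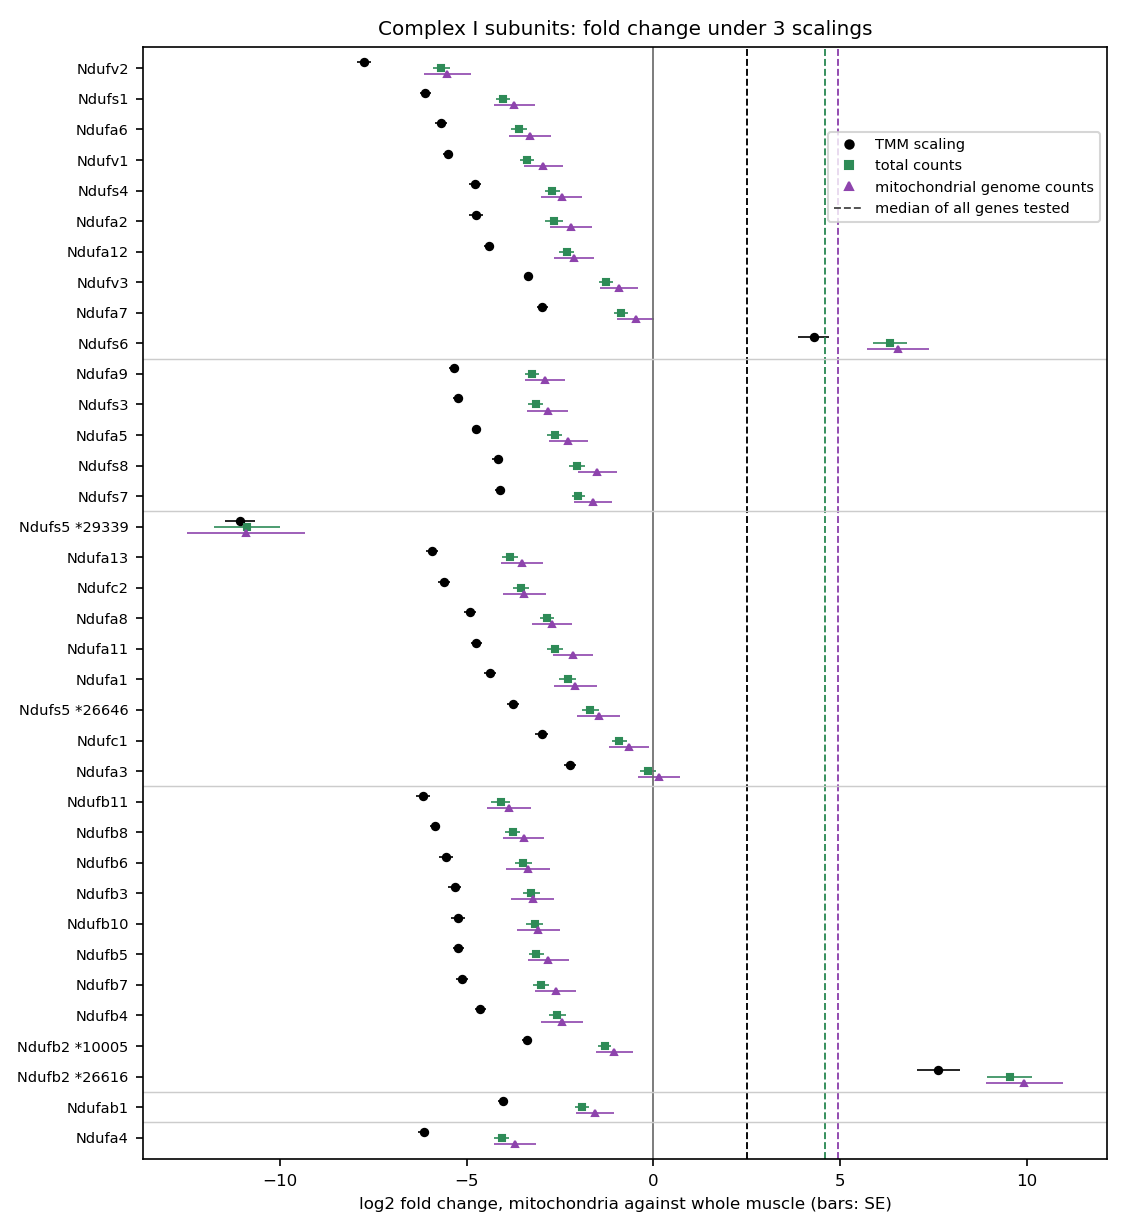
Log2 fold change, mitochondria against whole muscle, of 36 member rows with its SE under TMM scaling (black circles), total counts (green squares) and mitochondrial genome counts (purple triangles), in the same groups of subunits; dashed lines are the medians of all genes tested under each scaling, 2.51, 4.61 and 4.95. Every row shown but Ndufs6 and 1 Ndufb2 row lies left of all 3 medians, and the fitted values of the rows at 0 counts in a group are no measure of size.

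The names on 2 rows behaved differently row by row. The row of Ndufs5 with the identifier ENSRNOG00000026646, a subunit at the outer face of the membrane arm, had 24.7 to 30.1 CPM in muscle and 4.17 to 14.6 in mitochondria and fell by 3.76 ± 0.16 (SE, edgeR adjusted p = 1.53e-19). The other row, ENSRNOG00000029339, had 14.5 to 16.9 CPM in muscle, where it held 36.9% of the counts named Ndufs5 (2702 of 7324, 95% exact interval 35.8 to 38.0). In mitochondria it had 0 of 65 counts (95% exact interval up to 5.52%), where a floor of 3 counts gives a share of 4.62%. With a floor of 3 counts over the group it was at least 41.4-fold lower by pooled CPM (edgeR adjusted p = 5.49e-19), whereas the first row was 3.27-fold lower. Intervals and floors cover counting error only.

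The row of Ndufb2 with the identifier ENSRNOG00000010005 held all 16168 counts of that name in muscle. It had 79.9 CPM in the lowest muscle library, 98.3 in the median and 101 in the highest, and 31.9, 38.6 and 45.0 in mitochondria, the smallest coefficient of variation there of the rows with at least 1000 muscle counts. It fell by 3.39 ± 0.12 under TMM (SE, edgeR adjusted p = 2.00e-21) and by 1.30 with total counts (edgeR adjusted p = 5.03e-11). Relative to mitochondrial genome counts it fell by 1.04 (edgeR adjusted p = 0.0450). The second row, ENSRNOG00000026616, was at 0 counts throughout the muscle libraries and had 3 to 12 counts in each mitochondria library, 48 in all. It held 13.9% of the Ndufb2 counts there (48 of 346, 95% exact interval 10.4 to 18.0), was at least 348-fold higher by pooled CPM, with the same floor, and rose (edgeR adjusted p = 2.24e-12).

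Another row that rose was Ndufs6, which also had few muscle counts. Ndufs6, a zinc-binding subunit of the N module, had 0 to 5 counts in the muscle libraries (12 in all) and 3 to 12 in mitochondria (50 in all). Its CPM was 0 to 0.162 in muscle and 4.17 to 8.14 in mitochondria, a rise of 4.29 ± 0.41 (SE, edgeR adjusted p = 3.93e-11), and the pooled CPM was 90.6 times higher (95% exact interval 47.6 to 187, counting error only). This row and the second Ndufb2 row passed the filter for low counts only through the mitochondria libraries, and the Ndufs5 row at 0 counts in mitochondria only through muscle, so they had to differ to be tested at all. The count of 3 rows that rose reads against 63.0% of all genes tested.

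Near-identical copies limit what these rows can show. RefSeq genes of GRCr8, a later assembly than the one behind the counts, include all 35 member names as protein-coding genes, and 39 pseudogene entries are named after 17 of them. RefSeq gives Ndufs6 as a synonym of the pseudogene Ndufs6-ps1, and Ndufs5a as a synonym of Ndufs5-ps1. It also gives Ndufa10 as a synonym of Ndufa10l1, whose rows are not among the members. Those rows had 29769 and 316 counts in muscle and 280 and 38 in mitochondria. Which locus the rows named Ndufs5, Ndufs6 and Ndufb2 stand for, and how reads shared by copies were counted, the sources used here do not give, so their values are uncertain. By name, RefSeq has 0 pseudogene entries for Ndufb2, 7 for Ndufb4, and 4 each for Ndufa13, Ndufa2 and Ndufa5. The doubt about shared reads extends to every member with such entries. Of the 35 names, 10 overlap another gene in that table, among them Ndufb2 with Braf, Ndufs3 with Kbtbd4, Ndufb5 with Mrpl47 and Ndufs6 with Mrpl36. Whether counting used the strand is not stated in those sources, so reads of such pairs may not be separated.

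The promoters of the intact genes behind the doubtful names Ndufs5 and Ndufs6 are shown with that of Ndufa11, the member with the most matches to the site of NRF1, a factor known for driving nuclear respiratory genes. They are the 250 bases before the gene start, from RefSeq in the build GRCr8, with matches in capitals.
Ndufs5, chr5:141264403-141264652, minus strand: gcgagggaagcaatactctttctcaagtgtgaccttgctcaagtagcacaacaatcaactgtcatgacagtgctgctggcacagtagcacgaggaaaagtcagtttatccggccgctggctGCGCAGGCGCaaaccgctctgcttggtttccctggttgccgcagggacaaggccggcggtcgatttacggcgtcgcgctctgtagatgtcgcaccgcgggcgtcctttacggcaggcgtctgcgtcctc
Ndufs6, chr1:31797150-31797399, plus strand: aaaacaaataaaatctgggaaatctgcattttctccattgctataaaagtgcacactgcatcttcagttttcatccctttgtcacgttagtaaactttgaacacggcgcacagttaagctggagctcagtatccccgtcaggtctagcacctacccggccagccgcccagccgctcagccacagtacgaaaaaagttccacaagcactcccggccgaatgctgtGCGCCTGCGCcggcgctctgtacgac
Ndufa11, chr9:1637364-1637613, plus strand: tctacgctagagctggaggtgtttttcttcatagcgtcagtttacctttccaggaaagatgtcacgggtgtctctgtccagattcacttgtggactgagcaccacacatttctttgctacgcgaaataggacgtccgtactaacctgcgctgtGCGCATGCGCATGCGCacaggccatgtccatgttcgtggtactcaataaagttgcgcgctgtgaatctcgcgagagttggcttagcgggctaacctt
The site was searched as GCGCA, any base, then GCGC, on both strands over 300 bases, 250 before to 50 after the start, and the 2 matches of Ndufa11 overlap. A promoter was found for 33 of the 35 names, and 7 of the 33 (21.2%) held the site, against 4.25% of all 33469 promoters. AAGATGGCG, the site of YY1, lay in 7 (21.2%) against 1.73% of all, TCAAGGTCA, the site of the estrogen-related receptors, in 0 against 0.433%, and GGGCGG, the site of SP1, in 14 (42.4%) against 33.1%. The median GC content was 56.3% for members and 51.7% for all, and the median observed-to-expected CpG ratio 0.868 and 0.392. In 37 promoters of nuclear subunits of the other respiratory complexes and ATP synthase, 18.9% held the NRF1 site, 8.11% YY1 and 37.8% SP1. In 15 promoters of complex I assembly factors these shares were 13.3%, 6.67% and 66.7%. The site of the estrogen-related receptors lay in 5.41% and 0%, the median GC content was 56.0% and 59.3%, and the CpG ratio 0.771 and 0.786. A match describes these letters only and shows no binding.

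The order of the members by counts differed between muscle and mitochondria. CPM is not divided by transcript length, so the shares that follow describe counts and not levels. The 5 rows with the most muscle counts, Ndufs1, Ndufv2, Ndufa4, Ndufv1 and Ndufs7, took 36.4% to 40.2% of all member counts in the muscle libraries and 20.9% to 25.2% in mitochondria. The 5 rows with the highest mean share in mitochondria, Ndufs7, the main Ndufb2 row, Ndufa7, Ndufv1 and Ndufv3, took 31.4% ± 2.14 there and 17.5% ± 0.437 in muscle (SD, n = 6 each). Each set was picked for its counts in 1 group, so its lower share in the other group is a description only. Ndufv2 went from 9.35% ± 0.490 of member counts to 1.31% ± 0.552 and Ndufs1 from 9.79% ± 1.07 to 4.41% ± 0.624 (SD, n = 6 each). Ndufs7 went the other way, from 5.69% ± 0.529 to 10.4% ± 1.19, and so did the main Ndufb2 row, from 2.25% ± 0.221 to 6.73% ± 1.12, and Ndufa7, from 1.27% ± 0.182 to 5.01% ± 1.21. Among the 33 rows with at least 1000 muscle counts and a count in mitochondria, mean CPM spanned a 27.2-fold range in muscle and a 10.8-fold range in mitochondria. In mitochondria these means ran from 5.59 to 60.6 CPM. The 4 adipocyte markers, with means of only 0.0300 to 0.755 CPM in muscle, had 11.8 to 29.3 in mitochondria, within the same range. Whether the members' counts in mitochondria differ from those of genes with few muscle counts was not tested. Across these 33 rows the mean CPM of both groups correlated weakly, with Pearson's r of 0.34 on the log2 scale and Spearman's rho of 0.38. This is a description over rows that share libraries and differ in length.

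**Figure D4:**
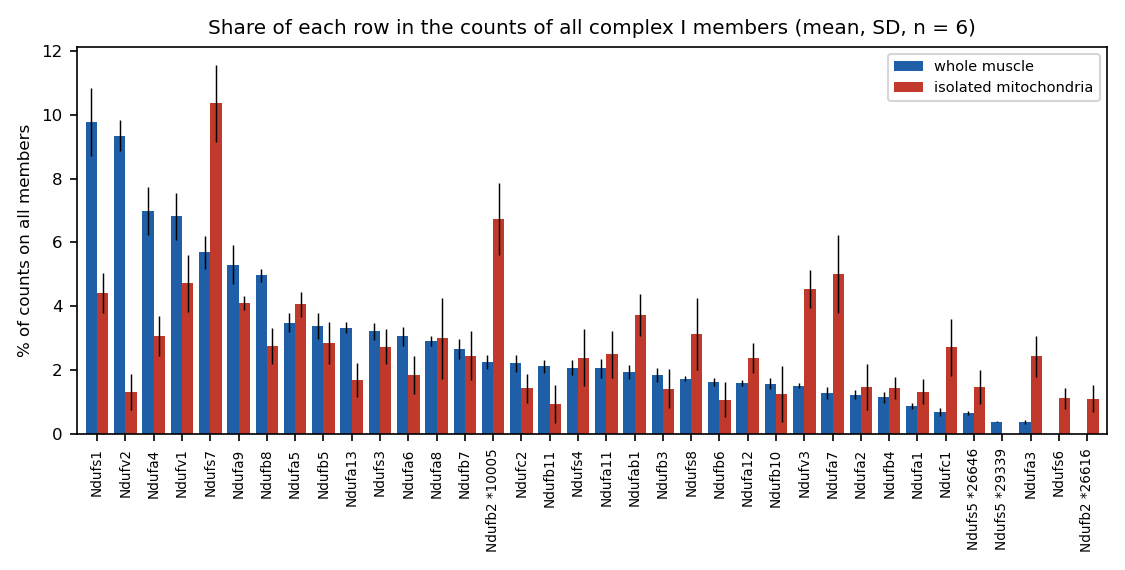
Share of 36 member rows in the counts of all members, as mean and SD over the 6 whole-muscle libraries (blue) and the 6 mitochondria libraries (red), in order of the muscle share and not divided by transcript length. Ndufv2 drops from 9.35% to 1.31%, while Ndufs7 and the main Ndufb2 row gain.

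Between animals, the rows with at least 1000 muscle counts varied in whole muscle by a median of 10.7% (coefficient of variation of CPM), from 2.75% for Ndufs8 to 19.1% for Ndufc1. In mitochondria the median variation of these rows was 33.8% by CPM and 28.4% by nuclear counts, where counting error alone gives 22.9% and 23.5%.

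Assembly factors build the complex and leave it, and the direction of their mRNAs here depends on the scaling. Of 19 listed, 17 had a row, and under TMM 15 fell and 0 rose, with a median of -1.74, against 30.3% and 63.0% of all genes tested. Ndufaf7 and Nubpl did not pass, and both rose with DESeq2, which called 2 factors higher, beside 66.4% of all genes. With total counts 5 factors fell, 8 rose and the median was 0.36, where 9.03% of all genes fell, 84.3% rose and the median was 4.61. With mitochondrial genome counts 2 factors fell, 3 rose and the median was 0.72, where 4.34% of nuclear genes fell, 80.9% rose and the median was 4.95. At an unadjusted p under 0.05, 0 factors were higher under TMM. Under all 3 scalings Tmem70 and Ecsit fell. Tmem70, which also serves the assembly of ATP synthase, had 28.0 CPM in the lowest muscle library, 31.7 in the median and 36.9 in the highest, and 4.66, 7.78 and 11.3 in mitochondria. The groups lay apart, and Tmem70 fell by 4.10 ± 0.15 (SE, edgeR adjusted p = 3.58e-21). Ecsit, which acts in the assembly of the membrane arm and in innate immune signalling, had 64.0, 68.4 and 72.1 CPM in muscle and 14.0, 21.3 and 38.9 in mitochondria, also apart. It fell by 3.75 ± 0.13 (SE, edgeR adjusted p = 8.62e-22).

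Foxred1, an oxidoreductase-like assembly factor, had 28.6 to 41.3 CPM in muscle and 31.9 to 58.3 in mitochondria. The groups overlapped, and the gene fell by 1.72 ± 0.12 under TMM (SE, edgeR adjusted p = 3.36e-14) and rose by 0.39 with total counts (edgeR adjusted p = 0.0275). Ndufaf7, a methyltransferase, had 7.40 to 9.84 CPM in muscle and 29.1 to 58.5 in mitochondria, and Nubpl, which delivers iron-sulfur clusters, 3.17 to 6.43 and 12.2 to 35.0. For both, every mitochondria library lay above every muscle library by CPM, which held for 79.5% of all genes tested. Their log2 fold changes were 0.11 ± 0.13 (SE, edgeR adjusted p = 0.398) and 0.23 ± 0.20 (SE, edgeR adjusted p = 0.267) under TMM and 2.22 and 2.34 with total counts (edgeR adjusted p = 2.18e-18 and 1.11e-14). Of the 17 factors, 3 had every mitochondria library above every muscle library, Ndufaf2 among them. The reverse held for 2, beside 6.77% of all genes tested.

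**Figure D5:**
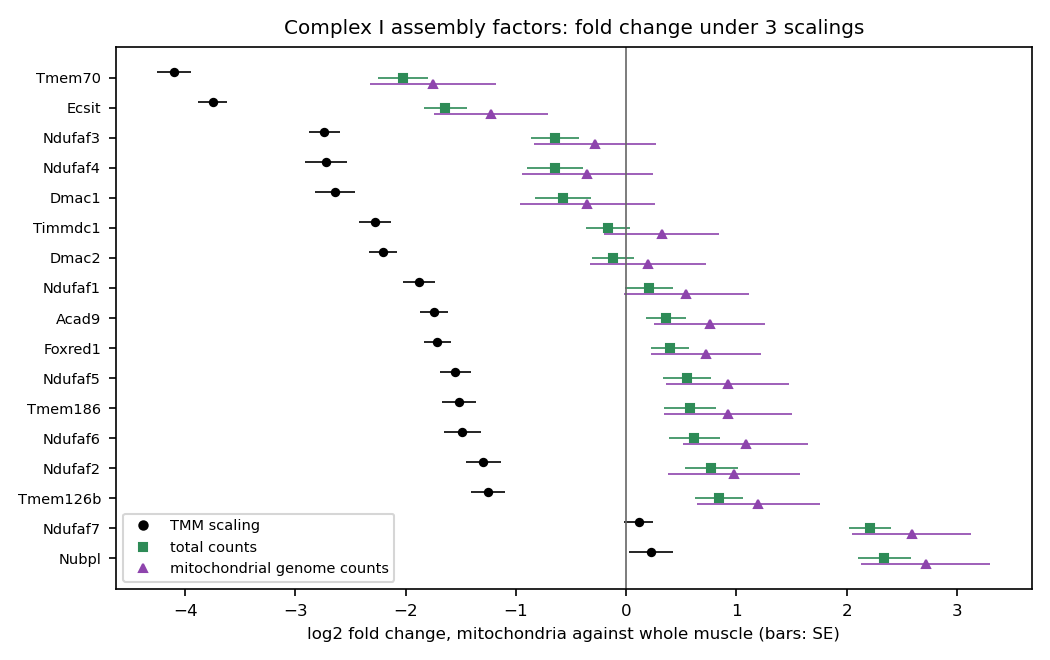
Log2 fold change, mitochondria against whole muscle, of the 17 assembly factors with its SE under TMM scaling (black circles), total counts (green squares) and mitochondrial genome counts (purple triangles). Tmem70 and Ecsit lie left of 0 under every scaling, Ndufaf7 and Nubpl right of it, and most others change side.

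Nuclear subunits of the other respiratory complexes and of ATP synthase were also lower for the most part. Of 39 such rows tested, 37 fell and 2 rose under TMM (median -5.83), where 30.3% of all genes fell and 63.0% rose. With total counts 36 fell and 3 rose (median -3.76), where 9.03% fell and 84.3% rose. The complex I members had medians of -4.78 and -2.71. The difference between these lists was not tested.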

How the data were processed

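Total RNA of 12 libraries, 6 of whole muscle and 6 of mitochondria from the same 6 animals, was counted per gene, and the deposited values are raw counts. FastQC 0.74, cutadapt 4.6, STAR 2.7.11a, HTSeq and the build mRatBN7.2 are named in the submitters' processing notes. Not given in the sources used here are the annotation release, the strand setting and what was done with reads of several hits. Reads were not tied to molecules, so counting intervals cover counting error only.

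Counts were fitted with edgeR 4.0.16 in R 4.3.3 (TMM, quasi-likelihood, group as the only term, genes kept by expression with a minimum count of 10), adjusted by Benjamini-Hochberg over 24679 genes with a threshold of 0.05. The minimum count is scaled to library size, so the second Ndufb2 row passed with 3 to 12 counts in each mitochondria library. Fold changes are log2, mitochondria against muscle. On simulated data, 192 of 200 genes changed 4-fold were recovered, with 5 false calls. Only these 200 of 24679 genes were changed there, whereas 30.3% were called lower and 63.0% higher in the deposited counts. Recovery with that many changed genes was not tested. Alternatives were RLE, total, nuclear and mitochondrial genome counts as scaling, DESeq2 1.42.0, other filters, thinning, an animal block and leaving out each library. The labels tie same-numbered libraries to 1 animal, and the deviations of the 6 pairs correlated by -0.00747 to 0.0201.

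The members and lists were chosen with earlier results of these data known. Genes named with values are the core subunits, names on more than 1 row, rows that rose or did not pass, the 5 most counted in muscle, the 5 largest and 5 smallest falls, and, of the assembly factors, the 3 most abundant, the largest change and any that rose. Ndufa13, Ndufab1, Ndufaf7, Nubpl and members given by a fold alone were added after their values were seen. Motifs were searched in RefSeq promoters of GRCr8. Unnamed genes stayed in the fit. By exception to the rule for named genes, the values of 1 member row are not reported here, though it is in the counts over members and lists.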

Additional observations from a re-analysis of the deposited data

Results flagged for a closer look

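Of 80 groups of 6 libraries examined, 5 (6.25%) held a library that stood apart from the others by Dixon's test, where chance gives about 1 in 20. Ndufb8 had 25.0 CPM in mitochondria replicate 1 and 12.6 to 15.8 in the other mitochondria libraries. Ndufa8 had 28.5 CPM in mitochondria replicate 5 and 10.1 to 16.6 in the others. Ndufab1 had 98.9 CPM in whole-muscle replicate 2 and 73.8 to 79.8 in the other muscle libraries. The second Ndufb2 row, ENSRNOG00000026616, had 13.5 CPM in mitochondria replicate 3 and 4.17 to 6.74 in the others. The 5 rows with the most muscle counts took 20.9% of member counts in mitochondria replicate 5 and 24.1% to 25.2% in the others.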

How the results depend on the processing

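The count of 34 members that fell ranged from 30 to 34 over the alternatives run. The count that rose was 3, except that it was 1 with at least 10 counts required in 6 libraries (35 members tested) and 0 after thinning to equal nuclear counts (33 tested), since fewer rows were tested there. The count of 15 assembly factors that fell was 5 with total counts, 5 with nuclear counts, 2 with mitochondrial genome counts and 9 after thinning (14 tested). None rose under TMM, but 2 did with RLE, 8 with total counts, 9 with nuclear counts and 3 with mitochondrial genome counts. With DESeq2, with 10 counts in 6 libraries and after thinning, 2 rose each time. Of the genes tested in each setting, 63.0% rose under TMM, 66.5% with RLE, 84.3% with total counts and 85.6% with nuclear counts. The shares that rose were 80.9% with mitochondrial genome counts, 66.4% with DESeq2, 53.1% with 10 counts in 6 libraries and 58.4% after thinning. The shares that fell were 30.3% under TMM, 9.03% with total, 9.30% with nuclear and 4.34% with mitochondrial genome counts, and 27.9% after thinning. Ndufa3 turned to 0.16 with mitochondrial genome counts, and Foxred1 to 0.39 with total, 0.44 with nuclear and 0.72 with mitochondrial genome counts; the cause was not tested. Leaving out 1 library at a time gave 0 to 1 assembly factors that rose, the 1 being Nubpl without whole-muscle replicate 2 (0.38, edgeR adjusted p = 0.0491), and 503 of 504 pairs of gene and left-out library kept direction and call. With the replicate block, which pairs libraries of 1 animal, 34 members fell and 3 rose, 15 assembly factors fell and 0 rose, and none of the 42 genes followed changed its call. Depth limits the mitochondria side, where a member with at least 1000 muscle counts had at most 89 counts in a library.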
